A study of Macaca fascicularis with 2 samples.

Results

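Autophagy is the route by which a cell wraps part of its own cytoplasm in a double membrane, the autophagosome, and delivers it to the lysosome for breakdown. The genes described here encode the core of that machinery, together with cargo receptors, lysosomal membrane proteins and transcription factors tied to it. They were chosen by a symbol rule that uses no measured value, although earlier results of these data were known when they were chosen. The symbols matched 42 of the 28162 gene symbols in the files. MAP1LC3B2, which the symbol rule also allows, was not matched.

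RNA came from gastrocnemius, a calf muscle, of the cynomolgus macaque, Macaca fascicularis. One library is labelled lean with a chow diet, and the other is labelled non-lean with a high fat diet. The labels give no age and no number of animals behind a library, and the series design names its comparison as lean against obese muscle. With 1 library in each group there is no replicate check, so every difference below compares these libraries and may also hold differences of animal, sampling and library preparation.

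Autophagy begins when the ULK kinase complex, which AMP-activated protein kinase (AMPK) and the mTORC1 kinase control in opposite directions, activates a lipid kinase complex built on PIK3C3 and beclin 1. Lipid is then fed to the growing membrane, and small ubiquitin-like proteins of the ATG8 family are joined to it by a conjugation system. In skeletal muscle autophagy is known to supply amino acids during fasting and to clear damaged mitochondria and aggregated proteins, and both its loss and its excess are known to cause muscle wasting.

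The lean library held 15983348 counts and the non-lean library 12731974. The trimmed mean of M-values set the scaling, and levels are given as CPM, the count after scaling relative to all counts of its library. Differences are log2 ratios, non-lean over lean, so that positive values mean higher in the non-lean library, and square brackets hold 95% intervals that cover counting error only. Where values of a gene come in pairs, the lean library is given first and the non-lean library second. The 13707 genes whose scaled CPM averaged at least 1 over both libraries are the tested genes. The marker genes fixed for skeletal muscle were abundant, with a summed CPM of 273227 and 215604. Of 13 muscle markers 10 had intervals below 0 and 3 above (7 and 6 with total counts), from -0.93 for the myosin gene MYH1 to 0.80 for MB, the gene of myoglobin. Markers of other cell types differed as well. Of 14 tested macrophage markers, 10 had intervals below 0 and none above, although their summed CPM, most of it from CD74, was 551 and 451. Fibroblast markers had intervals below 0 for 11 of 13, with a summed CPM of 1685 and 778, and endothelial markers for 6 of 7, with 502 and 335. Adipocyte markers had intervals below 0 for 5 of 7 and above 0 for 1, with a summed CPM of 578 and 635, most of it from PNPLA2. The adipocyte markers with the most counts, PNPLA2 and CFD, stood at log2 ratios of 0.27 [0.22, 0.32] and 0.00 [-0.10, 0.10]. ADIPOQ, at 3.02 and 0.224 CPM on 46 and 3 counts, and PLIN1, at 10.9 and 1.72 CPM, were lower. Those last genes are named after their values were seen. Among satellite cell, lymphocyte and Schwann cell markers 2 of 4, 3 of 4 and 2 of 4 were below 0, and 1 lymphocyte marker was above. Over all tested genes 28.8% of intervals lay below 0 and 25.8% above. The B cell marker MS4A1 had 0 counts in both libraries and the erythroid marker ALAS2 had 0 and 1. The erythroid marker HBB had 59 and 71 counts, a log2 ratio of 0.45 [-0.06, 0.98]. In a piece of muscle, fewer cells of a type and less RNA per cell cannot be told apart, and the part of cell composition in the autophagy genes was not tested.

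The autophagy genes differed little between the libraries. Of the 42 members 40 were tested genes, with mean CPM from 3.25 for ATG16L2 to 559 for OPTN. The members summed to 43119 counts (lean) and 41726 (non-lean), which were 0.27% and 0.33% of all counts. Their log2 ratios ran from -0.44 for PIK3C3 to 0.61 for MAP1LC3A. MAP1LC3A was the 1 member at least 1.5-fold higher with an interval that excluded 0, where 11.9% of all tested genes were. None was at least 1.5-fold lower, where 15.4% of tested genes were. In all, 39 of the 40 members, or 97.5%, lay within 1.5-fold of equal levels, beside 69.4% of all tested genes. Among the tested genes that averaged 5 CPM or more, the share within 1.5-fold was 76.1%, with 9.97% higher and 13.9% lower.

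At a threshold of 2-fold no tested member was higher or lower, beside 4.91% and 7.16% of all tested genes. The intervals of 15 members lay above 0 and those of 4 below, and 21 held 0. Over all tested genes the corresponding shares were 25.8% above, 28.8% below and 45.5% holding 0. The median log2 ratio of the members was 0.07, with quartiles of -0.13 and 0.28, while that of all tested genes was -0.01, with quartiles of -0.39 and 0.34. Scaling by total counts instead makes every log2 ratio 0.14 higher. Then 3 members were at least 1.5-fold higher and none lower, beside 17.6% and 11.3% of tested genes, and the share of calls in all genes that are higher goes from 43.5% to 60.8%. ULK3 at 1.46-fold and WIPI2 at 1.36-fold lay just under the 1.5-fold line in the main scaling and are the members that cross it with total counts.

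**Figure D1:**
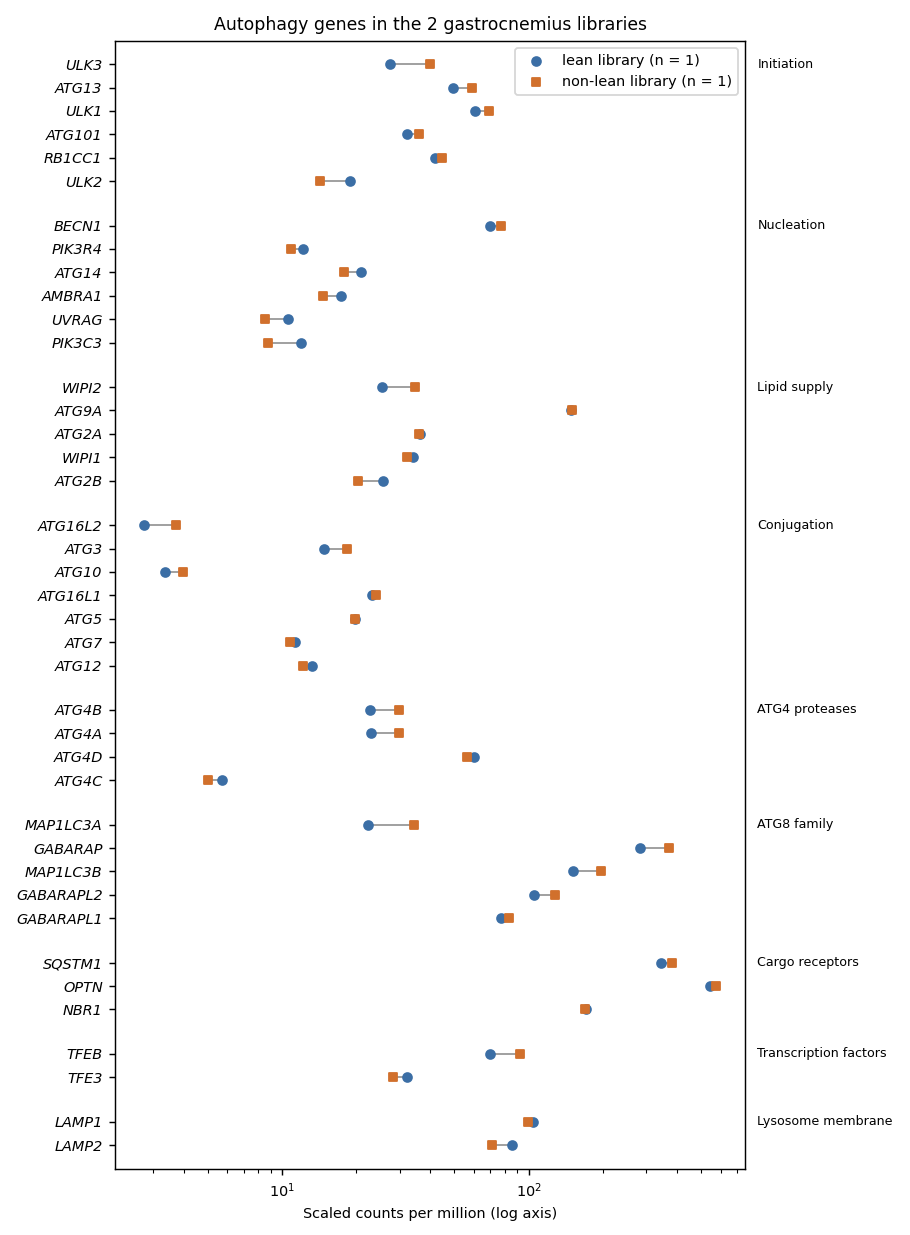
Scaled CPM (log axis) of each of the 40 tested autophagy genes in the lean library (circles) and the non-lean library (squares), grouped by role. The 2 points of a gene lie close together throughout. The axis is not corrected for transcript length, so it shows each gene between libraries and does not rank genes against each other.

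Every tested gene of the ATG8 family had a ratio above 0. ATG8 proteins are attached to the lipid of the autophagosome membrane, where they bind cargo receptors and help the membrane grow and fuse. The family has an LC3 branch and a GABARAP branch. Per gene, MAP1LC3A had 341 and 457 counts, at 22.4 and 34.2 CPM, a log2 ratio of 0.61 [0.40, 0.82]. MAP1LC3B, the member most often used as a marker of autophagosomes, had 2306 and 2632 counts, at 152 and 197 CPM, a ratio of 0.38 [0.30, 0.46]. Both LC3 genes were thus higher in the non-lean library, MAP1LC3A by 1.52-fold. With median-of-ratios scaling the ratio of MAP1LC3A was 0.58, just under the 1.5-fold line.

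In the other branch, GABARAP had 4313 and 4974 counts, at 283 and 372 CPM, a log2 ratio of 0.39 [0.33, 0.45]. GABARAPL2 had 1606 and 1703 counts, at 106 and 127 CPM, a ratio of 0.27 [0.17, 0.37]. The interval of GABARAPL1, with 1179 and 1115 counts, held 0 at 0.11 [-0.01, 0.23]. In the main scaling 4 of the 5 intervals of tested ATG8 genes lay above 0, beside 25.8% of all tested genes. With total counts 5 of 5 did, and no share over all genes was computed there. All 5 ratios stayed above 0 under each of the 3 scalings tried. That was bound to happen, since the other scalings move every log2 ratio by only 0.14 and -0.03. No share of ratios above 0 over all tested genes was computed. MAP1LC3C had 0 counts in both libraries, which allows up to 3 counts, or 0.197 and 0.224 CPM.

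Summed over its members, the family had 9745 and 10881 counts. The make-up of that sum differed little. GABARAP gave 44.3% (95% Clopper-Pearson interval 43.3 to 45.3) of the family's counts and 45.7% (44.8 to 46.7). MAP1LC3B gave 23.7% (22.8 to 24.5) and 24.2% (23.4 to 25.0). GABARAPL1 gave 12.1% (11.5 to 12.8) and 10.2% (9.68 to 10.8), and those intervals do not overlap. ATG8 proteins are small, and short transcripts as a class also differed between these libraries. Among 44 tested genes outside the pathway whose transcripts are known to be short, a list added after the values were seen, the median log2 ratio was 0.49, with 31 intervals above 0 and 3 below. Among 49 tested genes whose transcripts are known to be long it was -0.39, with 8 above and 33 below. The part of transcript length in the ATG8 ratios was not tested.

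**Figure D2:**
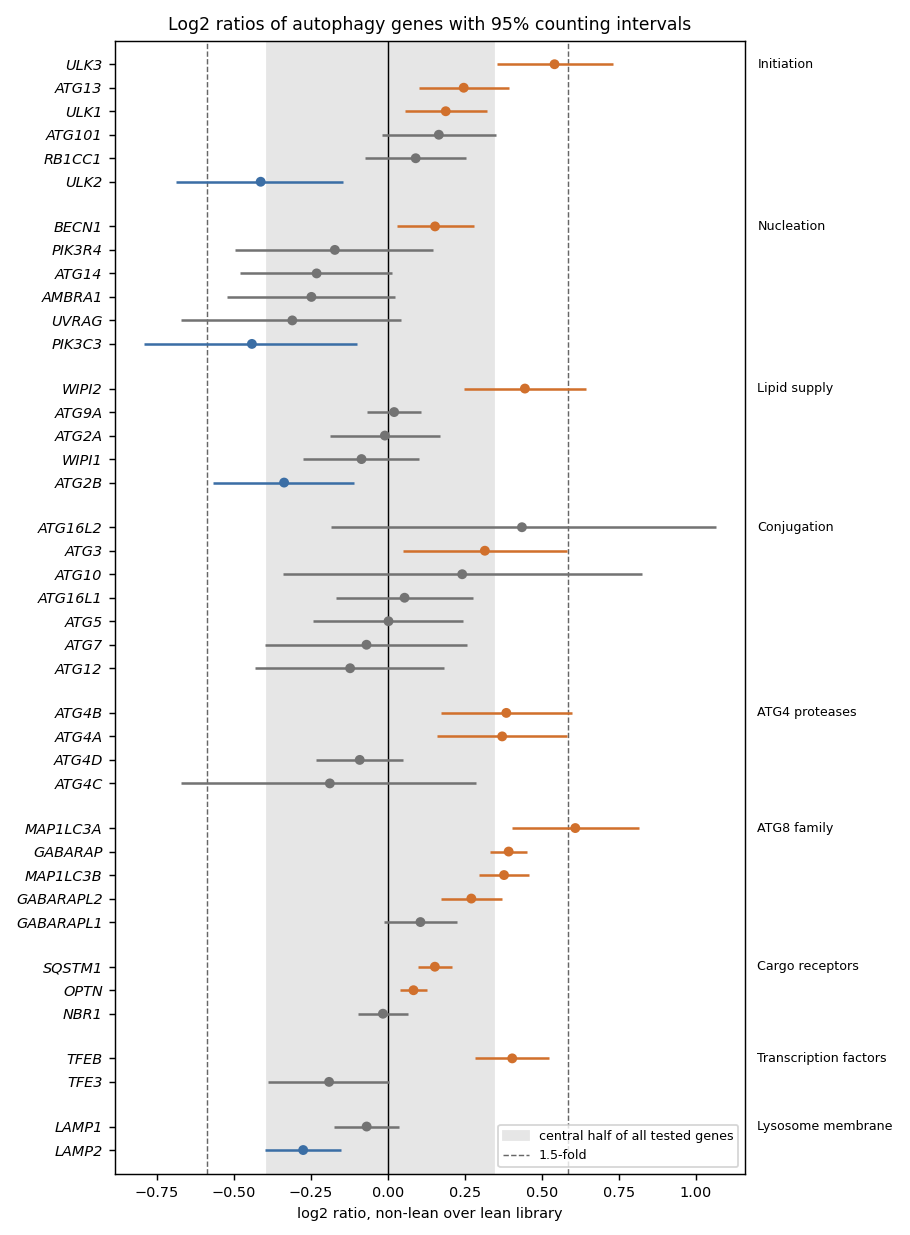
Log2 ratio (non-lean over lean) for the 40 tested autophagy genes (points) with 95% counting intervals (bars), grouped by role. Orange intervals lie above 0 (15 genes), blue below 0 (4 genes) and grey hold 0 (21 genes). The shaded band runs between the quartiles of all tested genes, -0.39 and 0.34, and dashed lines mark 1.5-fold, which MAP1LC3A alone passes.

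Before ATG8 proteins can be attached, the ATG4 proteases cut their ends to expose a glycine, and the same enzymes later free them from membranes. ATG4A had 351 and 399 counts, at 23.1 and 29.8 CPM, a log2 ratio of 0.37 [0.16, 0.58]. ATG4B, the protease known for the broadest activity, had 346 and 397 counts, a ratio of 0.38 [0.17, 0.60]. The intervals of ATG4C, with 87 and 67 counts, and ATG4D, with 914 and 754, held 0 at -0.19 [-0.67, 0.29] and -0.09 [-0.23, 0.05]. The family was therefore split, with ATG4A and ATG4B higher by about the same fold and the other members not distinguishable from equal levels.

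The conjugation enzymes differed little. ATG7, the activating enzyme, had 172 and 144 counts, at 11.3 and 10.8 CPM, a log2 ratio of -0.07 [-0.40, 0.26]. ATG3, which passes ATG8 proteins to the lipid, had 225 and 246 counts and was higher at 0.32 [0.05, 0.58]. ATG5 had 300 and 264 counts, or 19.7 CPM in both libraries, a ratio of 0.00 [-0.24, 0.25]. ATG5 is joined to ATG12, and the pair binds ATG16L1 to mark where on the membrane ATG8 is attached. ATG12 stood at -0.12 [-0.43, 0.18] and ATG16L1 at 0.05 [-0.17, 0.28]. ATG10, which joins ATG12 to ATG5, had 51 and 53 counts, and ATG16L2, a relative of ATG16L1, had 42 and 50. At that depth their ratios of 0.24 [-0.34, 0.83] and 0.44 [-0.18, 1.07] could not be told from 0. Of the 7 conjugation genes ATG3 alone had an interval that excluded 0.

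Upstream, the ULK kinases and the partners of the ULK complex were mixed. ULK1, the main kinase of the complex, had 920 and 921 counts, at 60.5 and 68.9 CPM, a log2 ratio of 0.19 [0.05, 0.32]. ULK2, a close relative that can stand in for ULK1, had 288 and 190 counts, at 18.9 and 14.2 CPM, and was lower at -0.41 [-0.69, -0.14]. ULK3, a more distant kinase of the same name, had 416 and 532 counts, at 27.3 and 39.8 CPM, and was higher at 0.54 [0.35, 0.73]. ULK1 and ULK3 were thus higher and ULK2 lower. Among the partners that hold the complex together, the adaptor ATG13 had 754 and 786 counts and was higher at 0.25 [0.10, 0.39]. Its binding partner ATG101, with 489 and 482 counts, stood at 0.17 [-0.02, 0.35], and the scaffold RB1CC1, also called FIP200, with 637 and 596, at 0.09 [-0.07, 0.25]. The interval of ULK2 was the only one of these 6 below 0, and it stayed below 0 with median-of-ratios scaling. With total counts, where ULK2 stood at -0.27, its interval lay only barely below 0.

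The lipid kinase complex that starts the membrane tended the other way, although few of its intervals excluded 0. PIK3C3, also called VPS34, the kinase that makes phosphatidylinositol 3-phosphate, had 181 and 117 counts, at 11.9 and 8.75 CPM. Its log2 ratio of -0.44 [-0.79, -0.10] was the lowest of all tested members. Its regulatory subunit PIK3R4, with 186 and 145 counts, stood at -0.17 [-0.50, 0.15]. BECN1, the beclin 1 subunit, went against the rest, with 1059 and 1035 counts, at 69.6 and 77.4 CPM, a ratio of 0.15 [0.03, 0.28].

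ATG14 and UVRAG bind beclin 1 in alternative forms of the complex, ATG14 at the start of autophagy and UVRAG in later traffic. ATG14 had 318 and 238 counts, a log2 ratio of -0.23 [-0.48, 0.02], and UVRAG 161 and 114, a ratio of -0.31 [-0.67, 0.04]. AMBRA1, which links beclin 1 to its regulators, had 265 and 196 counts, a ratio of -0.25 [-0.52, 0.02]. Of the 6 genes 5 had ratios below 0, but PIK3C3 alone had an interval below 0. With total counts no interval of the 6 lay below 0, and PIK3C3 stood at -0.30. With median-of-ratios scaling 3 did, those of PIK3C3, AMBRA1 and ATG14, and the interval of BECN1 held 0 at 0.12.

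BCL2 and its relatives are known to bind beclin 1 and hold it inactive. In a list of 6 BCL2 family genes, BCL2 had 1192 and 678 counts and was 1.54-fold lower, at -0.63 [-0.77, -0.49]. MCL1, another survival factor, was lower at -0.51 [-0.64, -0.38]. BCL2L1 stood at 0.03 [-0.19, 0.25], and BNIP1, a membrane fusion protein with a BCL2-binding segment, was higher at 0.78 [0.37, 1.20]. Of the 6 genes, 3 had intervals below 0 and 1 above, beside 28.8% and 25.8% of all tested genes.

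The genes of membrane supply were mixed. Of the 5 tested, 1 interval lay above 0, 1 below and 3 held 0, beside 25.8%, 28.8% and 45.5% of all tested genes. ATG9A, the lipid scramblase whose vesicles seed the autophagosome, had 2256 and 2011 counts, at 148 and 150 CPM, a log2 ratio of 0.02 [-0.07, 0.11]. ATG2A and ATG2B are bridges along which lipid flows from the endoplasmic reticulum. ATG2A had 551 and 481 counts, a ratio of -0.01 [-0.19, 0.17], while ATG2B had 391 and 272 and was lower at -0.34 [-0.57, -0.11]. WIPI1 and WIPI2 read phosphatidylinositol 3-phosphate on the growing membrane. WIPI2, which recruits ATG16L1, had 387 and 463 counts, at 25.4 and 34.6 CPM, and was higher at 0.45 [0.25, 0.64], and WIPI1, with 518 and 429, stood at -0.09 [-0.27, 0.10]. ATG9B, a relative of ATG9A, had 5 and 14 counts and did not pass the filter. Its ratio of 1.59 [0.12, 3.50] rests on those 19 counts. With total counts the interval of ATG2B held 0, at -0.19.

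The cargo receptors carried large counts and small differences. They bind ubiquitin on cargo with one segment and ATG8 proteins with another. SQSTM1, also called p62, had 5237 and 5116 counts, at 344 and 383 CPM, a log2 ratio of 0.15 [0.10, 0.21]. OPTN, optineurin, had 8258 and 7689 counts, at 543 and 575 CPM, a ratio of 0.08 [0.04, 0.13]. NBR1, a relative of p62, had 2607 and 2266 counts, at 171 and 169 CPM, a ratio of -0.02 [-0.10, 0.07]. All 3 lay within 1.12-fold of equal levels, and narrow intervals here come from deep counts and not from agreement between animals. NBR1 was above 0 with total counts, at 0.13.

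The transcription factors went apart. TFEB and TFE3 are related factors that enter the nucleus when mTORC1 is inactive and switch on lysosomal and autophagy genes. TFEB had 1064 and 1237 counts, at 69.9 and 92.5 CPM, a log2 ratio of 0.40 [0.28, 0.52]. TFE3 had 491 and 378 counts, at 32.3 and 28.3 CPM, a ratio of -0.19 [-0.39, 0.01]. TFEB was thus 1.32-fold higher, while the interval of TFE3 just held 0 and lay below 0 with median-of-ratios scaling, at -0.22. Of the lysosomal membrane proteins, which coat the inner face of the organelle, LAMP2 had 1305 and 948 counts, at 85.8 and 70.9 CPM, and was lower at -0.27 [-0.40, -0.15]. LAMP2 is known to be needed for autophagosomes to fuse with lysosomes in heart and skeletal muscle. LAMP1 had 1586 and 1329 counts, a ratio of -0.07 [-0.17, 0.04] that turned to 0.07 with total counts.

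Ratios between related members do not depend on how the libraries were scaled. Pairing does not remove a difference between short and long transcripts, whose lists had median log2 ratios of 0.49 and -0.39. The part of transcript length in the pair differences was not tested. For 22 pairs with shared or alternative roles, the count ratio of the pair was compared between libraries with an exact conditional interval. The intervals of 17 pairs excluded 0 and those of 5 held 0. The furthest apart was ULK2 over ULK3, with count ratios of 0.692 and 0.357, a log2 difference of -0.95 [-1.29, -0.62]. ULK1 over ULK2 went from 3.19 to 4.85, a difference of 0.60 [0.30, 0.91]. TFEB over TFE3 was 2.17 and 3.27, a difference of 0.59 [0.36, 0.83].

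WIPI1 over WIPI2 had count ratios of 1.34 and 0.927, a log2 difference of -0.53 [-0.81, -0.26]. Counts are not corrected for transcript length, so these ratios do not rank the genes of a pair within a library. ATG4A over ATG4B was nearly the same in both libraries (-0.01 [-0.31, 0.29]). ATG4A over ATG4D had count ratios of 0.384 and 0.529, a difference of 0.46 [0.21, 0.72], and ATG4B over ATG4D differed by 0.48 [0.22, 0.73]. The alternative beclin 1 partners, ATG14 over UVRAG, had count ratios of 1.98 and 2.09, a difference of 0.08 [-0.36, 0.52] that held 0. No pair's estimate reached 2-fold. These pairs share genes, so the 17 are not independent, and no share for gene pairs in general was computed to set beside them. Over single genes, intervals held 0 for 45.5% of those tested, but that is another measure and no yardstick for the pairs.

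**Figure D3:**
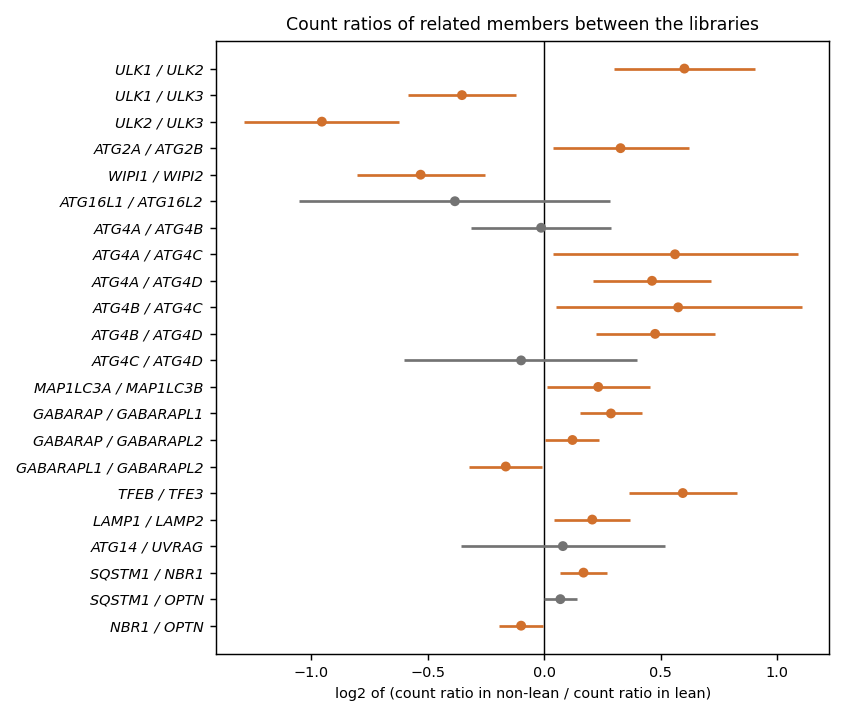
Log2 difference between libraries in the count ratio of 22 pairs of related autophagy genes (points), with 95% exact conditional intervals (bars). Positive values mean that the first gene gained on the second in the non-lean library. Orange intervals exclude 0 (17 pairs) and grey intervals hold 0 (5 pairs).

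The files also split each gene over its RefSeq transcript models. Of the 33 tested members with at least 2 models, 14 had a model that held at least 10% of the gene's estimated count in one library and differed in share by at least 20 percentage points. That is 42.4%, beside 44.5% of the 8760 tested genes with at least 2 models, so the autophagy genes are near the background here. ATG7 was an extreme case. Its first model took all of the 172 estimated lean counts and 21.1% of the non-lean counts, where a model with 0 lean counts took 59.9%. For ATG4B the leading lean model went from 65.0% to 1.08%, and a model at 0 in the lean library held 66.0% in the non-lean library.

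ATG5, ATG4B and ATG7 differed in this way while their gene totals lay within 1.31-fold. ATG5's first model had 110 and 0 estimated counts. ULK2's leading model held 90.3% and 40.5% of the gene, and a model with no lean counts reached 44.9%. BECN1 moved between its leading models, the first from 55.6% to 28.2% and the next from 38.6% to 63.3%. ATG101 did likewise, from 80.0% to 43.8% and from 18.3% to 54.5%. Models of a gene share most of their sequence, so these estimates depend on how shared reads are divided, which counting intervals do not cover. The called member, MAP1LC3A, kept 96.1% and 96.5% in its leading model.

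**Figure D4:**
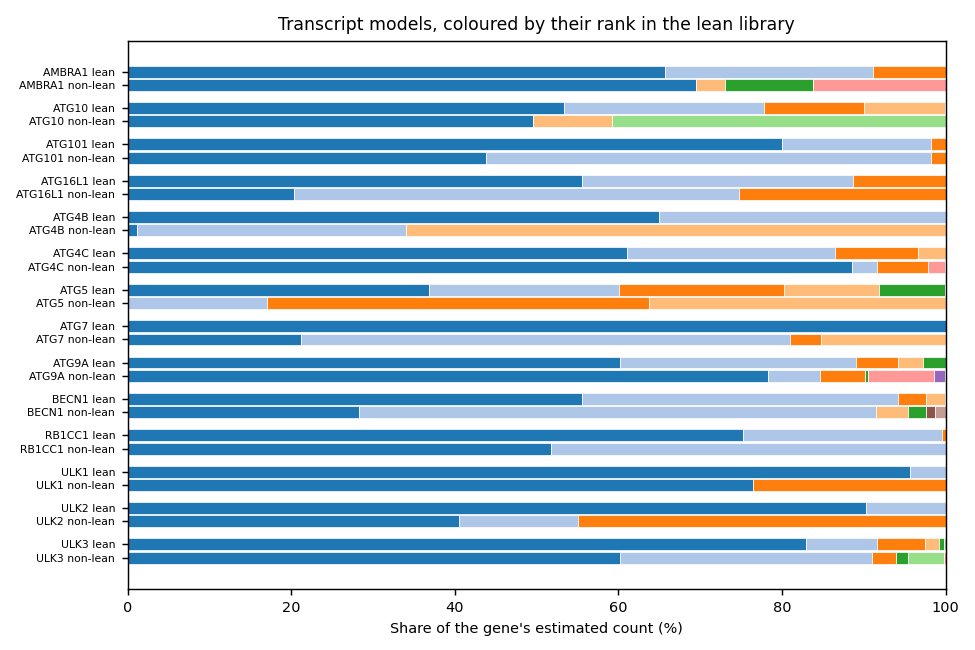
Share (%) of each gene's estimated count held by its transcript models in the lean and the non-lean library, for the 14 tested autophagy genes with a share that differed by at least 20 percentage points. Colours give a model's rank within its gene in the lean library, with dark blue the first, pale blue the next and dark orange the one after. The first model of ATG7 fills its lean bar and holds 21.1% of its non-lean bar.

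Read sharing touches other members too. For 26 of the 42 members the estimated counts summed over models did not come to a whole number in at least 1 library (tolerance 0.03), as arises when an estimate divides reads between genes. In the reference gene table the spans of 7 members overlap a protein-coding gene. These are ATG4D with KRI1, ATG12 with AP3S1, ATG13 with HARBI1, ATG16L2 with FCHSD2, LAMP1 with GRTP1, OPTN with MCM10 and SQSTM1 with MGAT4B. No share over all genes was computed for the 26 or the 7, so neither can be called particular to autophagy genes. The protocol names no step that marks strand, so reads from such overlaps cannot be assigned by strand.

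Around the core lie genes of the same pathway that the symbol rule does not cover. In a list of 23 tested genes of early autophagy, 7 intervals lay above 0 and 9 below. At least 1.5-fold, 2 genes were higher and 2 lower, or 8.7% each. For this list and those below, the shares of all tested genes were 25.8% above 0, 28.8% below, 11.9% higher and 15.4% lower. Those shares are for the main scaling. TMEM41B, a lipid scramblase of the endoplasmic reticulum, had 151 and 212 counts and was the highest at 0.67 [0.37, 0.99]. RUBCN, which restrains the UVRAG form of the PIK3C3 complex, was 1.53-fold higher with 233 and 313 counts. TECPR2 was lowest at -1.02 [-1.79, -0.32] with 56 and 24 counts, and WDR41, a partner of C9orf72, was lower at -0.64 [-0.83, -0.46]. The list median was -0.16. With total counts it was -0.02, and 8 intervals lay above 0 and 5 below.

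Of 23 further tested cargo receptors and their helpers, 10 intervals lay above 0 and 8 below, or 14 and 5 with total counts. TBK1, the kinase that phosphorylates OPTN and p62, had 94 and 146 counts and was the highest at 0.82 [0.44, 1.21], followed by TEX264, a receptor for the endoplasmic reticulum, at 0.57 [0.36, 0.79]. NIPSNAP1, a tag of damaged mitochondria, was lowest at -1.20 [-2.46, -0.15] on 27 and 10 counts, and TOLLIP, an adaptor for ubiquitinated cargo, was lower at -0.64 [-0.88, -0.41]. The list median was 0.10, and 0.24 with total counts. In the genes of fusion with the lysosome, 4 of 22 intervals lay above 0 and 6 below. RAB2A and VPS16, which act in tethering, were the highest at 0.56 [0.46, 0.65] and 0.45 [0.27, 0.63]. The tethering subunits VPS41 and VPS39 were the lowest at -0.94 [-1.58, -0.35] and -0.53 [-0.67, -0.38]. The fusion list had a median of -0.08, which turned to 0.06 with total counts, where 5 intervals lay above 0 and 3 below.

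The proton pump of the lysosome, the V-ATPase, was higher in the non-lean library in much of its list. It acidifies the organelle so that hydrolases can work. Of 17 tested subunits 10 had intervals above 0 and none below under the trimmed mean, beside 25.8% and 28.8% of all tested genes. Median-of-ratios scaling gave 10 and none as well, and total counts 12 and none. For those other scalings no share of intervals over all genes was computed. ATP6V1E1, a stalk subunit, had 724 and 1244 counts, at 47.6 and 93.0 CPM, and was 1.95-fold higher at 0.97 [0.83, 1.10]. ATP6V0A1, a membrane subunit, stood at 0.56 [0.41, 0.72]. The lowest were ATP6V1A, the catalytic subunit, at -0.30 [-0.95, 0.33] on 52 and 37 counts, and ATP6V0A2 at -0.28 [-1.07, 0.49]. The list median was 0.25. The lists of short and long transcripts, added after the values were seen, had medians of 0.49 and -0.39. Several V-ATPase proteins are small, as are the ATG8 proteins, and the part of transcript length in the V-ATPase ratios was not tested.

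The balance of the lysosomal hydrolases turned with the scaling. Of 34 tested, 5 had intervals above 0 and 12 below, and the median was -0.14. In all, 2 (5.88%) were at least 1.5-fold higher and 6 (17.6%) lower, beside 11.9% and 15.4% of all tested genes. With total counts 10 intervals lay above 0 and 6 below, and the median was 0.00. CTSD, the aspartic protease cathepsin D, had 7203 and 8889 counts, at 473 and 665 CPM, a log2 ratio of 0.49 [0.45, 0.54], and is named after its values were seen. SGSH at 0.91 [0.55, 1.27] and CTSF at 0.78 [0.61, 0.95] were the highest. GLB1 and CTSK were the lowest at -1.02 [-1.53, -0.54] and -0.82 [-1.10, -0.55], and GUSB and CTSH were at least 1.5-fold lower as well. Cathepsin K and several other hydrolases are abundant in macrophages and fibroblasts, whose markers had medians of -1.39 and -1.37, and the part of those cells was not tested. Other lysosomal proteins had 5 of 19 intervals above 0 and 6 below, or 7 and 5 with total counts. The cholesterol exporter NPC1, at 0.90 [0.65, 1.17], and the calcium channel MCOLN1, at 0.42 [0.13, 0.71], were the highest. GNPTAB at -0.85 [-1.42, -0.32] and the channel TPCN1 at -0.83 [-0.98, -0.67] were the lowest, and IGF2R, which sorts hydrolases, was 1.55-fold lower.

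The kinases that gate autophagy lay on both sides of 0. In the list of AMPK and mTORC1 genes 13 of 38 intervals lay above 0 and 13 below, and the median was 0.05. With total counts 18 lay above and 8 below, and the median was 0.20. PRKAB2, the AMPK beta subunit typical of muscle, had 3205 and 1287 counts, at 211 and 96.2 CPM, and was the lowest at -1.13 [-1.22, -1.04]. PRKAA2, the catalytic subunit of muscle AMPK, was 1.51-fold lower with 1631 and 947 counts, whereas PRKAG3, a gamma subunit of fast muscle, with 9036 and 8221 counts, stood at 0.05 [0.01, 0.09] and is named after its values were seen. CASTOR1, an arginine sensor, was next lowest at -0.86 [-1.66, -0.13] on 48 and 23 counts, and SESN3, a sestrin that restrains mTORC1, was 1.75-fold lower. LAMTOR5, a small subunit of the Ragulator complex that holds mTORC1 at the lysosome, was the highest at 0.95 [0.79, 1.12]. RICTOR, a subunit of the other mTOR complex, followed at 0.73 [0.49, 0.96], and SESN2 was 1.61-fold higher with 92 and 130 counts. MTOR itself, also named after its values were seen, had 1172 and 816 counts, a ratio of -0.34 [-0.47, -0.21].

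Among the 12 tested transcription factors known to act on autophagy genes, 2 intervals lay above 0 and 5 below, or 2 and 3 with total counts. FOXO1, which is known to drive autophagy and atrophy genes in muscle, had 380 and 1007 counts, a log2 ratio of 1.59 [1.42, 1.77]. Its relative FOXO3, likewise named with its values known, had 1080 and 896 counts, a ratio of -0.08 [-0.21, 0.05], and FOXO6 was the lowest at -0.89 [-1.29, -0.52]. PPARGC1A, a coactivator of mitochondrial genes, was the next highest at 0.36 [0.16, 0.55]. The stress factors ATF4 and CEBPB were 1.53-fold and 1.51-fold lower. The FOXO1 ratio corresponds to 3.01-fold. The median log2 ratio of the core autophagy genes was 0.07. RNA counts do not measure FOXO1 activity, and whether FOXO1 acts on the core genes in these libraries was not tested.

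**Figure D5:**
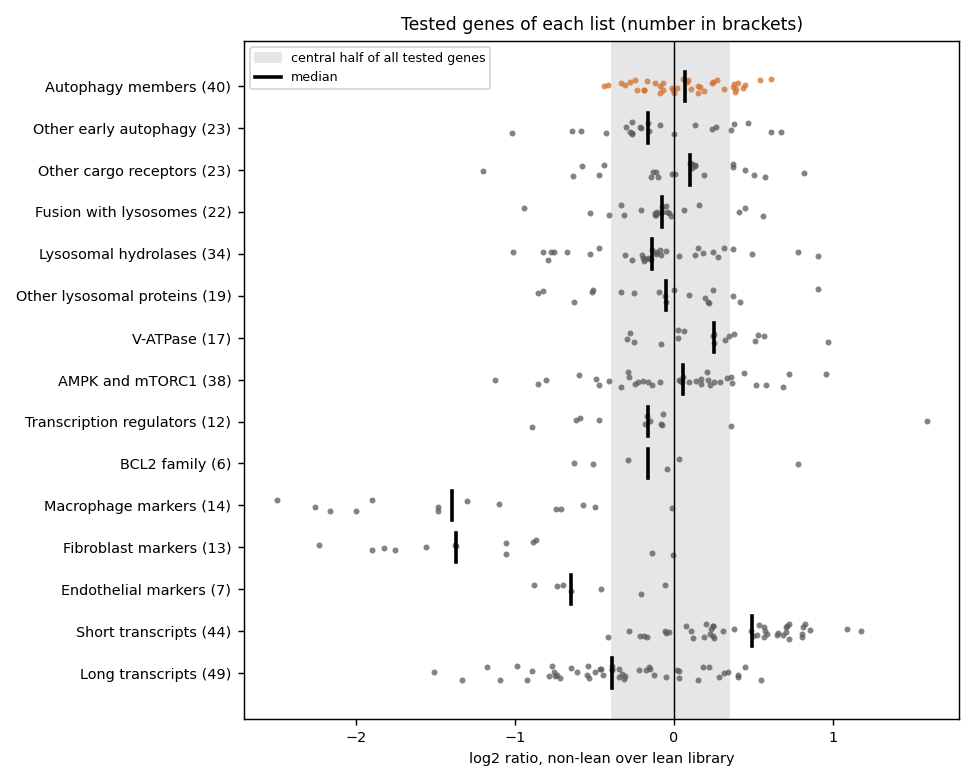
Log2 ratios (non-lean over lean) for the tested genes of each list (points, with the number of genes in brackets) and the list's median (black bar). The shaded band runs between the quartiles of all tested genes, -0.39 and 0.34. Autophagy members run from -0.44 to 0.61.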

How the data were processed

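The authors deposited expected counts, estimated reads per RefSeq transcript that need not be whole, in 1 file of 76183 transcripts per library. Per the submitters' processing notes the tools were RSEM 1.3.3, STAR 2.7.8a and Trim Galore 0.6.6, with no role given. No genome build or annotation release is given in the sources used here, so no coordinates are printed. The protocol names both single-end and paired-end reads, so the layout is unclear.

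Counts were summed per gene symbol and rounded. For 24 symbols that had become dates, transcripts were separated by accession, which gave 28175 genes. Names of 15 list genes came through a RefSeq table of assembly T2T-MFA8v1.1, used for names and overlaps only. Libraries were scaled with edgeR 4.0.16 in R 4.3.3, with factors of 0.952 (lean) and 1.05 (non-lean), and median-of-ratios sizes came from DESeq2 1.42.0. The log2 ratio used a prior count of 0.5 per library, and its interval comes from the share of both libraries' counts found in the non-lean one, by the exact Clopper-Pearson method. Shares used the same interval, and pairs the exact conditional odds ratio (scipy 1.17.1, Python 3.11.15). The method was tested on simulated counts that varied by counting error only, the same error its intervals assume. That test cannot speak to variation between animals, library preparations or read assignment. PCR reads are not independent molecules. No test between groups was possible and no p-value is given.

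The members and lists were chosen with earlier results of these data known, and the short and long transcript lists were added after the values were seen. All members could be named. From other lists the rule takes the 2 highest and 2 lowest tested genes and those at least 1.5-fold apart with 100 or more counts, and others are named as such. A gene that this rule takes is not reported here. Alternatives were scaling, the filter, the prior count, rounding, symbol matching and the fold for a call.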

Additional observations from a re-analysis of the deposited data

How the results depend on the processing

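The number of members at least 1.5-fold higher was 1, and it became 3 with total counts, 0 with median-of-ratios scaling, 2 with no filter on low values (MAP1LC3A with ATG9B) and 0 at a threshold of 2-fold. It was 1 under the other 4 alternatives, and the number at least 1.5-fold lower was 0 under all 8. MAP1LC3A thus lies so near the 1.5-fold line that the scaling sets its call. The median member ratio of 0.07 became 0.21 with total counts and 0.04 with median-of-ratios scaling, since these move every log2 ratio by 0.14 and -0.03. Relative to all tested genes it was 0.08 above. Total counts put 20 intervals above 0 and 2 below, and median-of-ratios scaling 14 and 7, where the main values were 15 and 4. No share of intervals over all tested genes was computed under those other scalings. No member whose interval excluded 0 changed sign under an alternative. No paired analysis was possible because each group has 1 library, and no library could be left out for the same reason. Depth limits ATG10, ATG16L2 and ATG4C, which had under 200 counts in both libraries together. Transcript lengths were not used here, so levels of different genes were not ranked.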
